A study of Mus musculus with 45 samples.

Results

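The heavy chain variable segments of the immunoglobulin locus were examined in sorted mouse lymph node B cells. Members were the rows of the gene table whose symbol begins with Ighv and a family number and whose summed count reached 100 over the 21 B cell libraries. Of 185 such rows, 102 were members, 83 fell under the threshold and 42 of those had no count in any B cell library. The members held 99.9% of all Ighv counts in these libraries. By annotation 96 were functional V genes and 5 were pseudogenes, and the row Ighv1-13 carried a symbol that 2 annotated genes share. The rows nearest the threshold were Ighv1-70 with a summed count of 86.1, Ighv8-7 with 90 and Ighv2-4 with 99.3 on the outside, and Ighv1-25 with 113, Ighv3-2 with 118 and Ighv8-6 with 139 on the inside. Because the threshold was a sum and 88.5% of the B cell Ighv counts lay in germinal center libraries, 10 members stood under 100 over the 9 non-GC libraries alone and 4 over the 12 GC libraries alone.

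The study asked how loss of S1PR4, a receptor for the lipid sphingosine 1-phosphate, alters germinal center lymphocytes. Wild-type (WT) littermates and S1PR4 KO mice were of both sexes and 8 to 12 weeks old. The line was obtained as strain B6.129P2-S1pr4tm1Dgen/J, and the paper states that it was then backcrossed repeatedly to C57BL/6. The mice received 20 µL of an emulsion in incomplete Freund's adjuvant in the hind footpad. It held 50 µg ovalbumin and 5 µg lipopolysaccharide. B cells were sorted from the draining popliteal lymph nodes on day 9, as germinal center (GC) B cells that were B220+ GL7+ Fas+ and as non-GC B cells that were B220+ GL7- Fas-. There were 6 WT and 6 S1PR4 KO GC B libraries, and 5 WT and 4 S1PR4 KO non-GC B libraries. All groups thus shared the immunization, and the knockout was present in every cell of the animal. The 24 T cell libraries of the series, sorted on day 6, entered no test here and are only described.

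A developing B cell joins 1 variable (V) segment to a D and a J segment, and the joined exon encodes most of the antigen-binding part of the heavy chain. Segments are grouped into families by sequence likeness, and IGHV1 is the largest family in C57BL/6 mice. In a germinal center, clones that carry 1 joined V segment each divide and mutate under selection for antigen binding, while plasma cells, which secrete antibody, hold far more immunoglobulin RNA per cell than resting B cells do.

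Ighv1-64 and Ighv5-17 led non-GC B cells by mean share, and Ighv7-3 had the highest share in any B cell library. Ighv2-3 and Ighv1-81 had shares called higher in GC B cells of both genotypes by the test given below, with overlap between libraries. The sequences below show these 5 segments, on which the results turn. Each is the germline sequence of the last 300 bases of the V exon, exon 2 of 2, in sense, from GENCODE release M21 on mm10, with the bases AGCT in capitals. AGCT is its own reverse complement and is known as a hotspot of somatic hypermutation in V segments.
Ighv1-64: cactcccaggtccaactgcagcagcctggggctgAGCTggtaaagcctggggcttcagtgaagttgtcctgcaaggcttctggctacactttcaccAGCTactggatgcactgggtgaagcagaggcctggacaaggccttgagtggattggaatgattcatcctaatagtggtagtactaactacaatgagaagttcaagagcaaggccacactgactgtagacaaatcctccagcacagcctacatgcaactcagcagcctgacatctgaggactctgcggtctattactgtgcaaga
Ighv5-17: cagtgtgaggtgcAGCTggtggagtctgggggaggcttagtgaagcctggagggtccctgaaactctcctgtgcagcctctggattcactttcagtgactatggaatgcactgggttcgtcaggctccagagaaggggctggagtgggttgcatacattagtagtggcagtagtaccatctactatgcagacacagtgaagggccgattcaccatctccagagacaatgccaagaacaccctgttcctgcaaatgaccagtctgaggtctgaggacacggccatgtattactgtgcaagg
Ighv7-3: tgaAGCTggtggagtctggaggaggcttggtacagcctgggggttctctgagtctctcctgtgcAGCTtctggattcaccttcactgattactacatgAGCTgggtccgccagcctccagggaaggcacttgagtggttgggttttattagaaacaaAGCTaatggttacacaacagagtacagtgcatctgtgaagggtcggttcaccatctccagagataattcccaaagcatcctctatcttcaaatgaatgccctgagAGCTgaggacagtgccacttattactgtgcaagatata
Ighv2-3: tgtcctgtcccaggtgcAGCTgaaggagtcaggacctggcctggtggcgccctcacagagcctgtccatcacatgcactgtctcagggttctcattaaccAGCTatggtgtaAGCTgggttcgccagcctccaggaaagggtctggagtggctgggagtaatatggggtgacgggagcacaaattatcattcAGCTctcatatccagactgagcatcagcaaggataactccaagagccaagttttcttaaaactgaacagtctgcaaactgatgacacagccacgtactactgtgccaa
Ighv1-81: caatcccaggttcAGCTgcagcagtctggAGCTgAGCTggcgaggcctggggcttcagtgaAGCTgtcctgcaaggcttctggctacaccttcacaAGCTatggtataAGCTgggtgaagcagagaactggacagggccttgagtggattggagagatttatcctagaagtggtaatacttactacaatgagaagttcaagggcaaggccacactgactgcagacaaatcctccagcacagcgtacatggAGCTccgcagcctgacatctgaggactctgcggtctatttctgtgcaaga
All lie on the minus strand of chromosome 12, at chr12:115507545-115507844 for Ighv1-64, chr12:113859149-113859448 for Ighv5-17, chr12:114153180-114153479 for Ighv7-3, chr12:113611187-113611486 for Ighv2-3 and chr12:115920279-115920578 for Ighv1-81. AGCT occurred 2 times in Ighv1-64, 1 time in Ighv5-17, 5 times in Ighv7-3, 4 times in Ighv2-3 and 7 times in Ighv1-81. Over the 101 members that could be read, the number of AGCT ran from 0 to 7 with a median of 3, and 97.0% held at least 1, close to the 96.2% of the 183 annotated Ighv genes.

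Segments resemble each other, which bears on every value. Of the 31-base words of a segment's exons, a median of 44.7% also occurred in another Ighv gene, and for 40 members the share was over 50%. It was 60.0% for Ighv1-64, 42.7% for Ighv5-17, 32.0% for Ighv7-3, 32.2% for Ighv2-3 and 46.1% for Ighv1-81. The highest was 98.1% for Ighv1-72, whose closest relative was Ighv1-62-3. The deposited values are estimated counts that divide such reads by a model, and 71.4% of the members' values were not whole numbers, against 8.69% over all rows. A count for 1 segment is therefore uncertain by what it could share with its relatives.

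Total counts of the B cell libraries ran from 26299429 to 39258003. The targeted gene S1pr4 stood at 16.6 to 35.3 CPM (a row's count scaled by the library's total count) in WT GC B and 78.9 to 97.6 CPM in WT non-GC B cells, and at no more than 0.17 CPM in any S1PR4 KO B cell library. Gcsam, a marker of GC B cells, ran from 196 to 399 CPM in the GC libraries and did not exceed 0.924 CPM in the non-GC libraries. The T cell gene Cd3e did not exceed 0.96 CPM in any B cell library. A list of 7 T cell genes that includes Cd3e summed to 64.1 to 154 CPM in the B cell libraries. The same list summed to 5983 to 8183 CPM in the T cell libraries. A list of 6 myeloid genes summed to 29.2 to 193 CPM in GC and 11.8 to 45.5 CPM in non-GC libraries. In sorted bulk samples, fewer cells that use a segment and less RNA of that segment per cell cannot be told apart.

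In non-GC B cells usage was spread over many segments and was much alike between mice. A segment's share is its count divided by its exon length, as a percentage of the same sum over the 102 members, and shares are used wherever segments are compared with each other. Ighv1-64 led by mean share in both genotypes, with 5.05% in WT and 5.74% in S1PR4 KO, and Ighv5-17 was next with 4.10% and 4.41%. Ighv1-72, Ighv1-26 and Ighv5-4 completed the first 5 in both genotypes, with mean shares between 3.72% and 4.02%. Ighv1-64 had shares of 4.95, 4.29, 6.09, 5.14 and 4.79% in the 5 WT libraries and 4.49, 5.43, 7.60 and 5.43% in the 4 S1PR4 KO libraries. Ighv5-17 had shares of 5.20, 3.22, 4.26, 3.42 and 4.38% in WT and 6.49, 3.95, 4.06 and 3.15% in S1PR4 KO non-GC B cells. The genotypes overlapped for both segments, and no segment exceeded 7.60% in any of these 9 libraries.

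**Figure D1:**
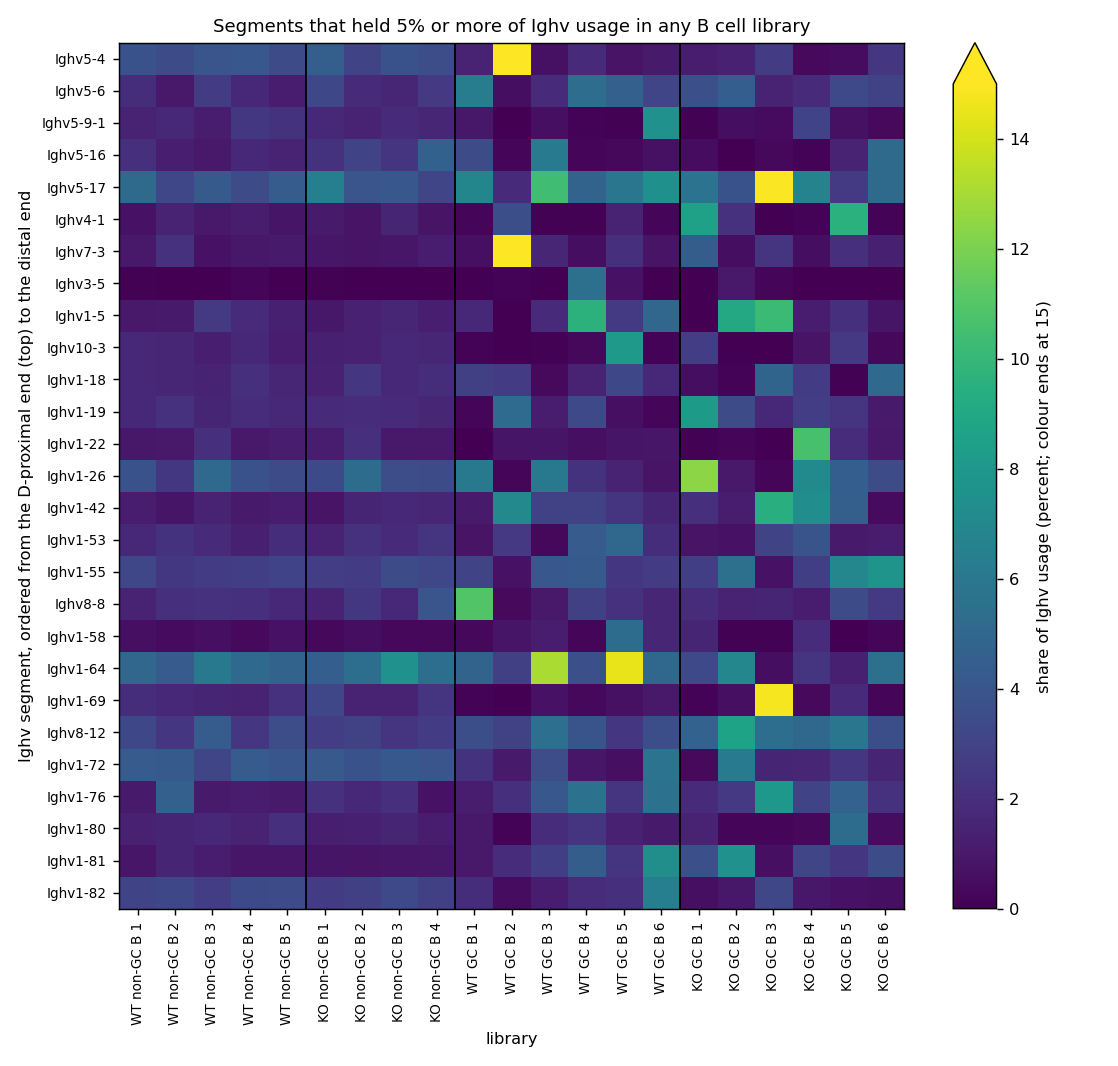
Share of usage (percent, brighter colour for higher shares, with the scale ending at 15%) of the 27 segments that reached 5% in any B cell library, with 1 column per library and 1 row per segment. The non-GC columns are dark and alike, whereas each GC column has its own few bright cells, and only Ighv7-3 at 27.5% and Ighv5-4 at 16.4%, both in WT GC B replicate 2, pass the end of the scale.

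In GC B cells a few segments took a large part of the usage, and which segments these were changed from library to library. The most used segment of the 6 WT GC libraries was Ighv8-8 with 10.9%, Ighv7-3 with 27.5%, Ighv1-64 with 13.1%, Ighv1-5 with 9.62%, Ighv1-64 with 14.5% and Ighv5-9-1 with 7.57%. In the 6 S1PR4 KO GC libraries it was Ighv1-26 with 12.4%, Ighv1-5 with 9.02%, Ighv5-17 with 14.9%, Ighv1-22 with 10.7%, Ighv4-1 with 9.57% and Ighv1-55 with 7.76%. Thus 5 different segments ranked first among the WT and 6 among the S1PR4 KO GC libraries, against 3 among the WT and 2 among the S1PR4 KO non-GC libraries. In WT GC B replicate 2 a second segment, Ighv5-4, held 16.4%, and in S1PR4 KO GC B replicate 3 Ighv1-69 held 14.8% and Ighv1-5 held 10.2% beside Ighv5-17. A share of at least 5% in at least 1 library was reached by 21 segments in WT GC and by 17 in S1PR4 KO GC B cells, and by 3 segments in the non-GC B cells of each genotype.

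Dominance was summarised by the effective number of segments (the inverse Simpson index), which is the number of equally used segments that would give the same unevenness. It was 43.1, 46.6, 41.4, 44.8 and 45.2 in WT non-GC B cells, with a mean of 44.2 ± 2.02 (SD, n = 5). It was 41.0, 43.1, 40.1 and 42.9 in S1PR4 KO non-GC B cells, with a mean of 41.8 ± 1.47 (SD, n = 4). Both sets lay close together. In WT GC B cells it ran from 8.46 to 26.4 with a median of 22.3 and a mean of 20.6 ± 6.46 (SD, n = 6). In S1PR4 KO GC B cells it ran from 12.4 to 30.4 with a median of 23.4 and a mean of 22.7 ± 6.15 (SD, n = 6). Every GC library was thus below every non-GC library, while the genotypes overlapped among the GC libraries.

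The 5 most used segments of a library summed to between 30.9% and 59.8% in WT GC B cells, with a median of 36.9%. In S1PR4 KO GC B cells they summed to between 28.8% and 57.4%, with a median of 37.6%. In non-GC B cells they summed to 20.2 to 23.8% in WT and to 21.5 to 23.2% in S1PR4 KO. Between 3 and 10 segments sufficed for 50% of usage in WT GC and between 5 and 11 in S1PR4 KO GC libraries, whereas 15 to 17 were needed in the non-GC libraries. The lowest evenness and the highest top share belonged to WT GC B replicate 2. Without this library the difference of the genotypes' mean effective numbers in GC B cells, 2.07 higher in S1PR4 KO, became 0.36 lower. No test was made of these summaries, since they are scores over segments chosen for their counts.

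**Figure D2:**
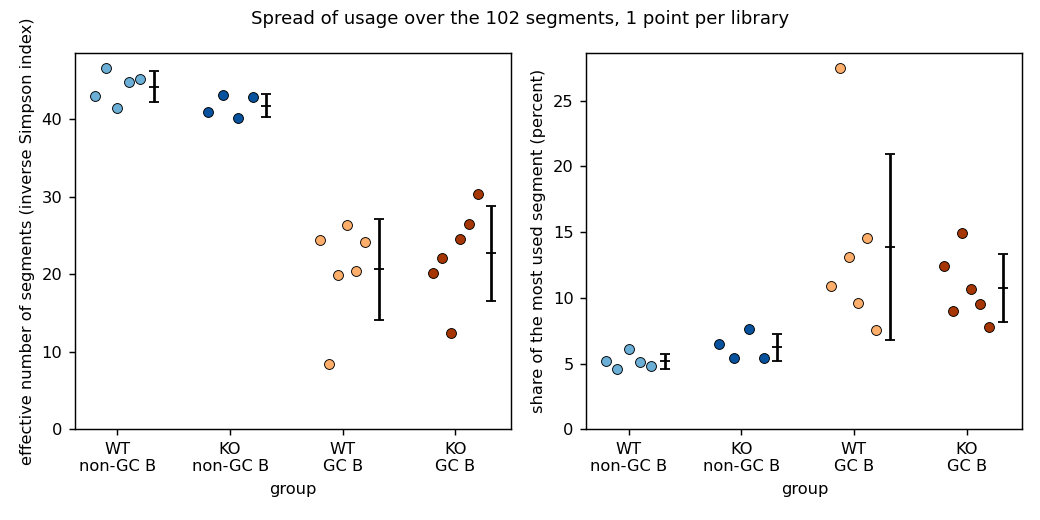
Effective number of segments (left) and share of the most used segment in percent (right), with 1 point per library and bars at the mean ± SD of each group (n = 5, 4, 6 and 6 from left to right). All 12 GC libraries lie below the 9 non-GC libraries in effective number, and WT GC B replicate 2, at 8.46 and 27.5%, lies farthest out.

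Libraries of 1 group were compared by their overlap, the sum over segments of the smaller of the shares in a pair of libraries. Non-GC libraries overlapped by a median of 87.3% within WT over 10 pairs, by 86.4% within S1PR4 KO over 6 pairs and by 86.6% between genotypes over 20 pairs. GC libraries overlapped by a median of 53.6% within WT and 54.2% within S1PR4 KO, over 15 pairs each, and by 51.7% between genotypes over 36 pairs. The median between genotypes thus lay below both medians within a genotype and inside their ranges, and this difference was not tested. Between GC and non-GC libraries the medians were between 55.1% and 57.7%. The ranges within GC groups, 32.8 to 60.3% in WT and 35.1 to 62.5% in S1PR4 KO, lay below the lowest overlap of any pair of non-GC libraries, 79.8%.

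Spread between libraries told the same at the level of single segments. Over the 55 segments with a mean share of at least 0.5% in WT non-GC B cells, the median coefficient of variation was 0.182 in WT and 0.196 in S1PR4 KO non-GC B cells. It was 0.927 in WT and 0.870 in S1PR4 KO GC B cells. The order of the segments was nonetheless kept in part when libraries were averaged. Across the 102 segments, the rank correlation of mean shares was 0.978 between the non-GC groups, 0.883 between the GC groups and between 0.832 and 0.841 for a GC against a non-GC group. These correlations are across segments that share exon length, mapping and library, and are given as a description. The 5 leading segments of WT non-GC B cells held a median of 20.7% of usage there, 22.3% in S1PR4 KO non-GC, 21.9% in WT GC and 18.7% in S1PR4 KO GC B cells. The 51 least used segments of WT non-GC B cells held medians of 10.6%, 9.38%, 12.4% and 10.4% in the same order.

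The summed level of the segments was higher in GC B cells, most of all in a few libraries. It was 494, 488, 591, 421 and 477 CPM in WT non-GC and 527, 495, 524 and 539 CPM in S1PR4 KO non-GC B cells. In WT GC B cells it ran from 1581 to 4059 CPM, above every non-GC library. Those of S1PR4 KO GC B cells ran from 469 to 9490 CPM, and replicate 6, at 469 CPM, lay within the range of the non-GC libraries. Leaving out S1PR4 KO GC B replicate 3, which held 9490 CPM, turned the difference of the genotypes' means in GC B cells (S1PR4 KO minus WT) from 419 to -873 CPM.

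The plasma cell gene Jchain, which encodes the chain that joins IgM and IgA subunits, was also higher in GC than in non-GC B cells. It ran from 2423 to 4638 CPM in WT GC and from 1191 to 9771 CPM in S1PR4 KO GC B cells, against 14.1 to 248 CPM in non-GC B cells. The S1PR4 KO GC libraries with the lowest Ighv levels, replicates 4, 5 and 6, had Jchain at 1210, 1413 and 1191 CPM, and replicate 3 had the highest value of both. Of these, replicate 6 had an Ighv level of 469 CPM, within the range of the non-GC libraries. WT GC B replicate 6 had the lowest Jchain of the WT GC libraries beside an Ighv level of 2749 CPM, the second highest among them. The summed level of 8 plasma cell genes (Sdc1, Prdm1, Xbp1, Jchain, Mzb1, Tnfrsf17, Irf4 and Derl3) was 3889 to 8378 CPM in WT GC, 2027 to 14605 CPM in S1PR4 KO GC and 509 to 835 CPM in non-GC B cells. Of these genes, 7 were called higher in GC than in non-GC B cells in WT and 6 in S1PR4 KO, by the test described next. Over all genes tested, 24.8% in WT and 25.3% in S1PR4 KO were called higher. None of the summed non-GC values reached a GC value, and the part of plasma cells in the Ighv level was not tested.

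**Figure D3:**
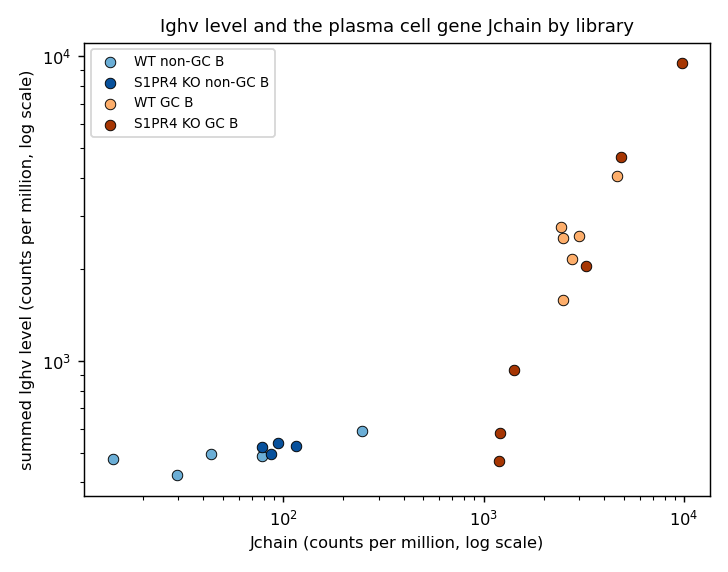
Summed Ighv level (CPM, log scale) against Jchain (CPM, log scale), with 1 point per B cell library. The 9 non-GC libraries lie between 421 and 591 CPM of Ighv, and the GC libraries reach from 469 to 9490 CPM, with Jchain above every non-GC library.

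Levels of the segments were compared by edgeR's quasi-likelihood test over all genes, with a gene called at a Benjamini-Hochberg false discovery rate (FDR) under 0.05 and a fold change over 1.5. In WT, 91 members passed the filter on low counts, and 48 were called higher and 2 lower in GC than in non-GC B cells. Over all 13324 genes tested, 24.8% were called higher and 23.1% lower, 47.8% in all, and the median log2 fold change was 1.76 over the members tested and 0.00 over all genes. In S1PR4 KO, 92 members were tested, and 26 were called higher and 3 lower, against 25.3% higher and 22.9% lower, 48.2% in all, of 13484 genes. Without any 1 of the 4 S1PR4 KO non-GC libraries the count of members called fell from 29 to 18 or 19. The median log2 fold change there was 1.55 over the members and 0.03 over all genes. Of the segments called higher, 24 were so in both genotypes, which is 50.0% of those in WT and 92.3% of those in S1PR4 KO. The same share was not counted over all genes, so it cannot be read as a trait of the segments. Because members were chosen by a sum in which GC counts prevailed, these counts describe the segments and lend no support to a direction.

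The direction turned when the segments were scaled by their own sum, which gives the shares of each library a fixed total. The same test, with the 102 members' library size set to the summed Ighv count of each library, asked whether a segment's share differed. In WT it called 3 members higher and 27 lower, against 24.4% higher and 23.3% lower over all genes. In S1PR4 KO it called 6 members higher and 21 lower, against 25.1% and 23% over all genes. Of the 48 segments with a higher level in WT, 3 also had a higher share, 3 had a lower share and 42 were not called. Of the 26 in S1PR4 KO, 6 had a higher share, none had a lower share and 20 were not called. A share lower in every GC library than in every non-GC library of the same genotype was seen for 27 members in WT and for 19 in S1PR4 KO, and a higher one for 0 and 1. By CPM over all genes tested, 26.5% in WT and 28.2% in S1PR4 KO were lower in every GC library, and 24.4% and 21.8% were higher. Counted by CPM too, 1 member in WT and 4 in S1PR4 KO were lower, and 19 and 5 were higher. The counts by share are on another scale than these rates and are given as a description. Because shares have a fixed total, the others must together hold less where a few segments take more, as in the GC libraries. The turn in direction therefore cannot be told apart from an effect of the scaling. It does not show that the segments with a lower share fell on their own.

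**Figure D4:**
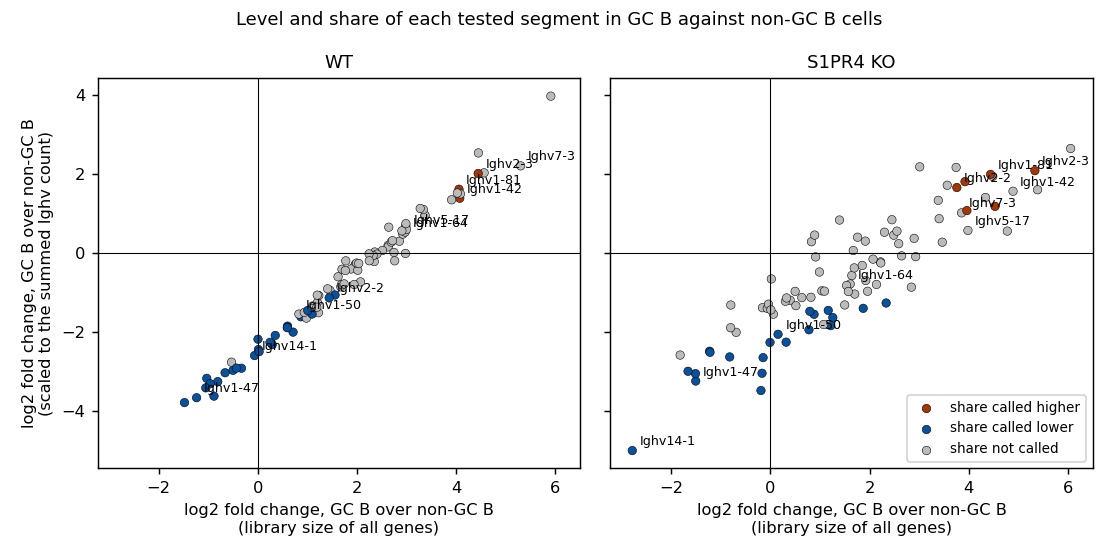
Log2 fold change between GC and non-GC B cells for each member tested, as a level (horizontal axis, scaled by all genes) and as a share (vertical axis, scaled by the summed Ighv count), in WT and S1PR4 KO. Most points lie to the right of 0 in level and below 0 in share, with medians of 1.76 and -0.61 in WT and of 1.55 and -0.81 in S1PR4 KO. Shares have a fixed total, so the turn in direction cannot be told apart from an effect of the scaling. The part of the dominant segments in it was not tested.

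Among members called higher with a mean of at least 10 CPM, the changes in level were largest for Ighv7-3, Ighv2-3, Ighv2-9-1, Ighv1-42 and Ighv1-81 in WT. This mean was taken over both groups, so a segment scarce in non-GC B cells could pass it only through its GC values. A segment as scarce there that was lower in GC B cells could not pass. The ranking is therefore a description and lends no support to a direction. Ighv7-3 ran from 8.31 to 1070 CPM in WT GC B cells with a median of 30.5, and from 3.96 to 10.2 CPM with a median of 4.98 in WT non-GC B cells. The groups overlapped, and replicate 2 alone reached 1070 CPM. Its log2 fold change was 5.30 ± 1.38 (SE; edgeR quasi-likelihood test with Benjamini-Hochberg adjustment, adjusted p = 0.00436), and it was 2.31 and still called without replicate 2. Ighv2-9-1 stood at 2.55 to 52.1 CPM in WT GC B cells with a median of 7.69, against 0.893 to 1.55 CPM with a median of 1.12 in WT non-GC B cells, without overlap, and its log2 fold change was 4.09 ± 0.87, or 3.46 without replicate 2.

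Ighv2-3 rose in WT, in each GC library. Its 6 WT GC values ran from 10.7 to 59.4 CPM with a median of 37.3, against 0.734 to 3.09 CPM with a median of 1.55 in WT non-GC B cells, so that the groups did not overlap. The log2 fold change was 4.44 ± 0.50 (SE; edgeR with Benjamini-Hochberg adjustment, adjusted p = 6.18e-06). As a share it held 0.529, 1.59, 1.12, 2.44, 2.24 and 1.53% in WT GC B cells against 0.226, 0.603, 0.568, 0.188 and 0.348% in WT non-GC B cells, a pair of ranges that overlap in 1 GC library. In S1PR4 KO the log2 fold change of its level was 5.33, or 4.68 and 4.7 without GC replicates 2 and 3. The log2 fold change of its share was 2.00 in WT and 2.08 in S1PR4 KO, both called. In S1PR4 KO its shares were 0.318, 2.56, 1.09, 0.295, 0.373 and 0.759% in GC and 0.324, 0.139, 0.18 and 0.232% in non-GC B cells. The GC shares of 0.318 and 0.295% lay within the non-GC range.

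Ighv1-81 was the other segment whose share was called higher in both genotypes. It held 1.03, 1.88, 2.79, 4.44, 2.31 and 7.42% of usage in WT GC and 3.66, 7.61, 0.603, 3.14, 2.37 and 3.41% in S1PR4 KO GC B cells. In non-GC B cells it held 0.884 to 1.54% in WT and 0.776 to 0.962% in S1PR4 KO. All but 1 of the S1PR4 KO GC libraries were above the S1PR4 KO non-GC libraries, the exception being replicate 3. In WT, GC replicate 1, at 1.03%, lay within the non-GC range. The log2 fold change of its share was 1.61 ± 0.42 in WT and 1.98 ± 0.52 in S1PR4 KO (SE; edgeR with Benjamini-Hochberg adjustment, adjusted p = 0.00461 and 0.00606). In level it was 4.06 in WT and 4.44 in S1PR4 KO, or 3.19 without S1PR4 KO GC B replicate 2. Ighv1-42 was called for its share in WT, with a log2 fold change of 1.38 ± 0.40, and not in S1PR4 KO, with 1.56 ± 0.71. Its level had a log2 fold change of 4.07 in WT, or 3.19 without WT GC B replicate 2, and of 4.89 in S1PR4 KO, or 2.40 without S1PR4 KO GC B replicate 3.

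In S1PR4 KO the largest changes in level among called members with a mean of at least 10 CPM were those of Ighv1-5, Ighv2-3, Ighv1-42, Ighv1-76 and Ighv1-81. The limit given above for this mean over both groups holds here too. Ighv1-5 ran from 0.775 to 1029 CPM with a median of 13.8 in S1PR4 KO GC B cells, against 5.31 to 9.0 CPM with a median of 7.21 in S1PR4 KO non-GC B cells. The GC values lay on both sides of the non-GC values. Replicates 2 and 3 were the high ones, with shares of 9.02% and 10.2%. Its log2 fold change was 5.39 ± 1.93 (SE; edgeR with Benjamini-Hochberg adjustment, adjusted p = 0.0286), its share was not called, and its level was no longer called without GC replicate 3 (3.87) or without any 1 of the 4 non-GC libraries (5.28 to 5.53). Ighv1-76 ran from 9.95 to 751 CPM with a median of 39.7, against 3.77 to 11.1 CPM with a median of 9.50, with a log2 fold change of 4.53, or 2.5 without GC replicate 3. Its share was called higher in S1PR4 KO, with a log2 fold change of 1.17, and not in WT, where WT non-GC B replicate 2 held 4.60% and the other WT non-GC libraries no more than 1.18%.

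The segments that led by mean share did not move alike in level and share. Ighv5-17 ran from 79.2 to 288 CPM in WT GC B cells, against 15.6 to 27.9 CPM in WT non-GC B cells, with no overlap and a log2 fold change of 3.00 ± 0.34 (SE; edgeR with Benjamini-Hochberg adjustment, adjusted p = 5.69e-06). As a share it ran from 1.81 to 10.4% in WT GC and from 2.57 to 14.9% in S1PR4 KO GC B cells, around its non-GC range of 3.15 to 6.49%, and was not called. Ighv1-64 held 2.85 to 14.5% in WT GC libraries with a median of 4.89%, and 0.560 to 6.93% in S1PR4 KO GC libraries with a median of 2.83%. Its level was called higher in WT, with a log2 fold change of 2.97, and not in S1PR4 KO, with 1.61 ± 0.86. Ighv8-12 was among the first 5 by mean share in both GC groups, with 3.64% in WT and 5.55% in S1PR4 KO, and its share was called higher in S1PR4 KO, with a log2 fold change of 1.07, and not in WT, with 0.19.

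Few segments were lower in level, and these were rare ones. Ighv1-47 was the only member called lower in both genotypes, with a log2 fold change of -1.24 in WT and -1.51 in S1PR4 KO. It ran from 0.152 to 0.922 CPM in WT GC against 1.12 to 1.95 CPM in WT non-GC B cells, and from 0.112 to 0.740 against 1.22 to 1.65 CPM in S1PR4 KO, without overlap in either genotype. Ighv1-47 also held 2 to 18 counts in each Tfh library and 0 to 3 in each non-Tfh library. The source of these counts, and whether all counts of this row come from joined segments, was not tested. Ighv5-12 was called lower in WT (-0.96), and Ighv14-1 (-2.79) and Ighv1-62-2 (-1.66) in S1PR4 KO. None reached a mean of 10 CPM, and all 4 were named because they were called, after their values were seen.

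By share, 7 members were lower in each of the 12 GC libraries than in any of the 9 non-GC libraries: Ighv1-47, Ighv1-49, Ighv14-1, Ighv1-39, Ighv5-9, Ighv5-12 and Ighv1-62-2, likewise named after their values were seen. All 7 were called lower in share in both genotypes, where 23.3% and 23% of all genes were called lower. The 7 were picked on the same shares that the test used. Their calls thus largely follow from the pick, lend it no support and cannot be set against those rates. By CPM, 26.5% of all genes in WT and 28.2% in S1PR4 KO were lower in every GC library of the genotype. The rate over all genes was not counted for all 12 against all 9 libraries, so the 7 are a description. Ighv1-62-2 held 0.645 to 1.16% in WT non-GC and 0.709 to 0.884% in S1PR4 KO non-GC B cells, against 0.0111 to 0.244% in WT GC and 0.00943 to 0.359% in S1PR4 KO GC B cells. Ighv1-39 held 0.968 to 1.32% and 0.781 to 1.05% in the non-GC groups, against 0.0452 to 0.330% and 0.0457 to 0.585% in the GC groups. Ighv1-47 had at most 0.0866% in a GC library and at least 0.213% in a non-GC library. For Ighv1-62-2 the exons share 92.2% of their 31-base words with Ighv1-71, and for Ighv1-47 the closest relative, Ighv1-73, shares 3.54%. No member was higher in share in all 12 GC libraries.

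Family shares were steady in non-GC B cells and shifted with the leading segments in GC B cells. The members came from 15 families, with 53 in IGHV1, 9 in IGHV5 and 7 in IGHV2. IGHV1 held a mean of 57.4 ± 1.29% in WT non-GC (SD, n = 5), 57.7 ± 2.48% in S1PR4 KO non-GC (SD, n = 4), 56.6 ± 11.7% in WT GC and 59.8 ± 5.86% in S1PR4 KO GC B cells (SD, n = 6 each). The means were thus close, and only the spread differed in size. IGHV5 was next, with means of 14.5%, 16.9%, 17.5% and 13.5% in the same order. IGHV7 held 27.6% in WT GC B replicate 2, nearly all of it Ighv7-3, and at most 2.09% in the other WT GC libraries. IGHV4 reached 9.59% in an S1PR4 KO GC library, IGHV10 reached 8.35% in a WT GC library and IGHV8 reached 14.7% in WT GC B replicate 1.

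IGHV9, with 4 members, was the family of several members whose GC and non-GC ranges stayed apart when both genotypes were pooled. It held 0.719 to 2.5% in WT GC and 0.487 to 3.58% in S1PR4 KO GC B cells, against 3.76 to 4.58% and 3.59 to 4.46% in non-GC B cells. IGHV6 held 0.241 to 1.21% in WT GC against 2.08 to 2.84% in WT non-GC B cells, and 0.148 to 2.01% against 1.86 to 2.55% in S1PR4 KO, where the ranges met. IGHV14 held medians of 0.888% and 1.12% in WT and S1PR4 KO GC against 3.34% and 3.05% in non-GC B cells, with overlap in WT. IGHV2 leaned the other way, with 2.20 to 3.95% in WT GC against 1.37 to 2.19% in WT non-GC B cells. In S1PR4 KO, IGHV2 held 1.61 to 6.28% against 1.34 to 1.86%, and these ranges overlapped.

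**Figure D5:**
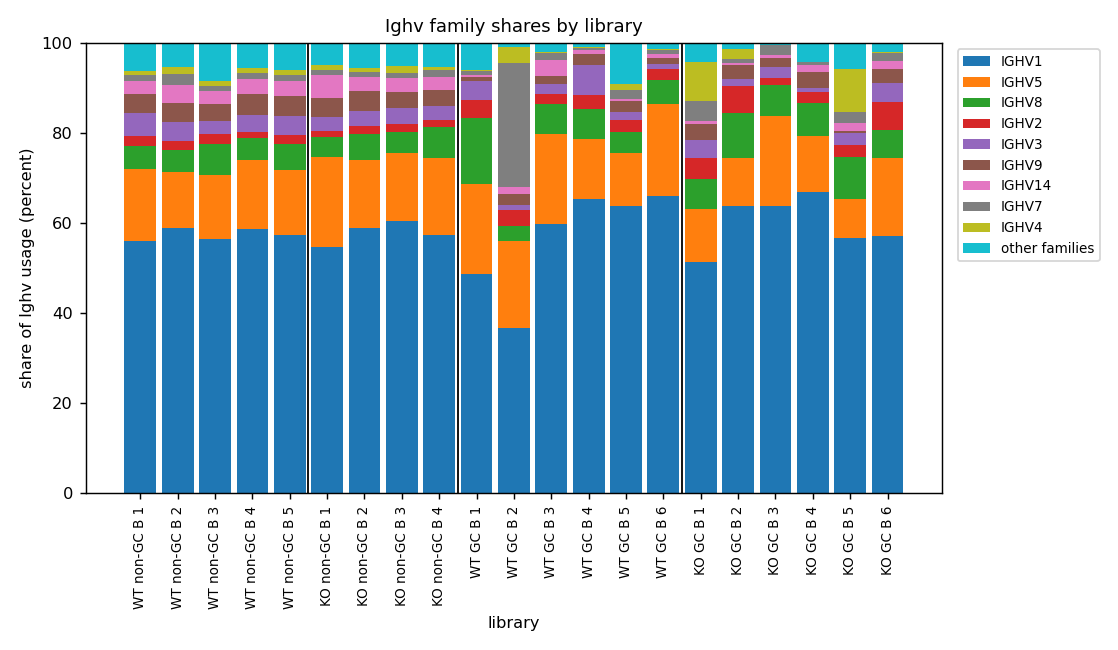
Share of usage (percent) by V family, with 1 stacked bar per B cell library and the smaller families summed. IGHV1 fills 36.5 to 66.8% of every bar, and the bars of the 9 non-GC libraries resemble each other more than those of the 12 GC libraries do.

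The annotated segments were ordered from the D-proximal to the D-distal end and cut into 4 stretches with equal numbers of annotated segments, which held 25, 26, 22 and 28 members. The distal stretch, made mostly of IGHV1 and IGHV8 segments, held a mean of 36.9% in WT non-GC, 37.0% in S1PR4 KO non-GC, 40.0% in WT GC and 38.0% in S1PR4 KO GC B cells. The proximal stretch held 21.2%, 22.7%, 22.5% and 22.1% in the same order, the next one 21.5%, 19.5%, 20.8% and 17.5%, and the one after it 20.4%, 20.8%, 16.8% and 22.3%. GC libraries again spread more widely, from 16.1 to 51.5% for the distal stretch in WT.

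Some segments are known for a particular specificity or for their place. Ighv1-72, which dominates the C57BL/6 response to the hapten nitrophenyl, held 3.15 to 4.33% in WT non-GC and 3.75 to 4.20% in S1PR4 KO non-GC B cells. Among GC libraries its median was 1.63% in WT and 1.60% in S1PR4 KO, with S1PR4 KO GC B replicate 2 highest at 6.18%. Ighv5-2, the member nearest the D segments, held 0.272 to 0.585% in WT non-GC and 0.0471 to 0.193% in WT GC B cells, without overlap. In S1PR4 KO it held 0.324 to 0.384% in non-GC and 0.0243 to 0.686% in GC B cells, and GC replicate 6 lay above every non-GC library. Ighv7-1, known from antibodies to phosphorylcholine, held 0.158 to 0.312% in WT non-GC and at most 0.0572% in WT GC B cells, without overlap. In S1PR4 KO it ran from 0.0580 to 0.253% in non-GC and from 0.00672 to 0.330% in GC B cells, with overlap.

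Ighv11-2 and Ighv12-3 are known from B-1 cells that bind phosphatidylcholine. Ighv11-2 held 3.37% in WT non-GC B replicate 3 and no more than 0.284% in the other 8 non-GC libraries, and 0 to 0.402% in the GC libraries. Ighv12-3 was also highest in WT non-GC B replicate 3, at 0.299%, against 0.152% or less in every other B cell library. That library also had the highest Jchain of the non-GC libraries, 248 CPM, and the highest Ighg1, 1071 CPM against 54.1 to 517 CPM in the others, and the part of either in the Ighv11-2 share was not tested.

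No member was called between genotypes by the main test. In GC B cells 86 members were tested, with 0 called by edgeR, 13 at an unadjusted p under 0.05 and 1 called by DESeq2, against 0.0612% of 13070 genes called by edgeR and 0.107% by DESeq2. In non-GC B cells 90 were tested, with 0 called by edgeR, 1 at an unadjusted p under 0.05 and 1 called by DESeq2, against 0.0537% of 13038 genes by edgeR and 0.123% by DESeq2. The genotype by population interaction was tested for 97 members, with 0 called by edgeR at an FDR under 0.05, 9 at an unadjusted p under 0.05 and 0 by DESeq2, against 0% of 14490 genes by edgeR and 0.0414% by DESeq2. The median log2 fold change of the members between genotypes was -0.24 in GC and 0.02 in non-GC B cells, beside 0.01 and -0.01 over all genes. Scaled by the summed Ighv count, 0 members were called in any of these comparisons, with 12, 2 and 10 at an unadjusted p under 0.05 in the same order. Over all genes, an unadjusted p under 0.05 by edgeR was reached by 540 of 13070 in GC and 593 of 13038 in non-GC B cells. For the interaction it was reached by 664 of 14490 genes. After the scaling these numbers were 537, 594 and 667. The members' counts were not tested against these rates.

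The segments nearest to a call were Ighv2-2, Ighv14-1 and Ighv5-16, which are named for that reason after their values were seen. Ighv2-2 held 0.356, 0.459, 0.419, 0.276, 0.140 and 0.584% in WT GC and 3.65, 2.79, 0.470, 1.44, 1.36 and 4.77% in S1PR4 KO GC B cells. All but 1 S1PR4 KO library lay above all WT libraries. Scaled by the summed Ighv count, its log2 fold change between genotypes was 2.70 ± 0.49 (SE; edgeR with Benjamini-Hochberg adjustment over all genes, adjusted p = 0.131), and the interaction was 2.79 ± 0.63 (adjusted p = 0.519), so that neither was called. Against non-GC B cells of the same genotype its share was called lower in WT, with a log2 fold change of -1.14, and higher in S1PR4 KO, with 1.65. Its exons share 58.7% of their 31-base words with Ighv2-4, which lay just under the threshold.

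Ighv14-1 ran from 0.456 to 5.83 CPM with a median of 1.21 in WT GC B cells and from 0 to 0.644 CPM with a median of 0.183 in S1PR4 KO GC B cells. DESeq2 called it lower in S1PR4 KO, with a log2 fold change of -3.03 (adjusted p = 0.0471), whereas edgeR gave -3.04 ± 0.82 (SE; adjusted p = 0.985). The ranges overlapped at these low levels. Ighv5-16 held 2.04, 1.27, 1.04, 1.64 and 1.5% in WT non-GC and 2.18, 3.07, 2.32 and 4.68% in S1PR4 KO non-GC B cells, without overlap. DESeq2 called its level higher in S1PR4 KO, with a log2 fold change of 1.14 (adjusted p = 0.0134), whereas edgeR gave 1.14 ± 0.24 (SE; adjusted p = 0.544). It was the only member without overlap between genotypes in either population. Over all genes tested, CPM did not overlap for 1.09% (higher in S1PR4 KO) and 0.752% (lower) in non-GC and for 0.0306% and 0.13% in GC B cells. In GC B cells its shares ran from 0.182 to 6.10% in WT and from 0.0137 to 5.21% in S1PR4 KO.

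Transcripts of the genes that join V segments were scarce for the recombinase and present for the end-joining factors. Rag1 and Rag2, the recombinase, did not exceed 0.23 and 0.04 CPM in any B cell library, and Dntt, which adds bases at the joins, did not exceed 3.33 CPM. Of 10 genes of V(D)J recombination, 7 passed the filter in GC against non-GC B cells, and 2 were called higher in both genotypes and 0 lower, where 24.8% of all genes in WT and 25.3% in S1PR4 KO were called higher. These were the end-joining genes Lig4, with a log2 fold change of 1.67 in WT and 1.73 in S1PR4 KO, and Xrcc6, with 0.63 and 0.70. None was called between genotypes by edgeR.

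The constant genes to which the segments are joined changed with the population in both genotypes. In WT, 6 of 8 were called higher in GC B cells, namely Ighg1 (log2 fold change 5.36), Ighg2b (5.06), Ighg2c (5.27), Ighg3 (2.52), Ighe (6.97) and Igha (3.32), and 2 were called lower, Ighm (-0.59) and Ighd (-2.89). The same 6 and 2 were called in S1PR4 KO, and none was called between genotypes by edgeR. Over all genes, 24.8% were called higher and 23.1% lower in GC B cells in WT, and 25.3% and 22.9% in S1PR4 KO. S1PR4 KO GC B replicate 3, in which Ighv5-17, Ighv1-69 and Ighv1-5 held the largest shares, also had the highest Ighg1, 61007 CPM, against 2370 to 33044 CPM in the other GC libraries. Which V segment was joined to which constant gene is not recorded in counts per gene.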

How the data were processed

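RNA from 45 sorted populations was sequenced, of which the 21 B cell libraries were tested. The deposited values are expected counts per gene from RSEM. Per the labels and the methods, the authors used cutadapt 2.10 for trimming, STAR 2.5.3 for alignment to mm10 and RSEM 1.3.0 for quantification, and the processing notes also name Picard and DESeq2. The methods name GENCODE M30 while the symbols matched release M21, from which annotation was taken here. No column was left unused (0), and the table held 55450 rows.

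Members and lists were chosen with earlier results of these data known. Shares were computed from unrounded counts per exon length. Counts were rounded and tested with edgeR 4.0.16 (filterByExpr, TMM normalization, quasi-likelihood F test, Benjamini-Hochberg adjustment over all genes tested) in R 4.3.3, in the 2 groups compared, or in all 4 B cell groups for the interaction. Genes past both an FDR of 0.05 and a 1.5-fold change were called, and for the interaction the FDR alone decided. SEs were taken from the log2 fold change and the F statistic. Alternatives were DESeq2 1.42.0, scaling by the summed Ighv count, other filters and normalizations, a replicate block and leaving out each library. The segments named were the 5 with the highest mean share in each group, those ranking first in a library, up to 5 per direction with the largest called change at a mean of 10 CPM or more, 5 known segments and those next to the threshold. Each mouse sample was treated as a replicate, and where samples are not stated to come from separate animals, p-values measure only the spread between them. The fitting code was tested on simulated data.

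One marker is not reported here. B cell libraries held 26299429 to 39258003 counts, and floors, 3 counts per library, cover counting error only.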

Additional observations from a re-analysis of the deposited data

Results flagged for a closer look

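Within groups of 4 to 6 libraries, 136 sets of values were examined. In 31 the highest or lowest library was farther from its nearest neighbour than Dixon's 95% value allows. Some sets overlap, and segments that ranked first in a library were among those examined. Dixon's rate of about 1 in 20 therefore does not apply to this count.

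WT GC B replicate 2 stood apart in the most values. It had an effective number of 8.46, a most used segment of 27.5% and a summed share of the 5 most used segments of 59.8%. Its IGHV7 share was 27.6%, its Ighv7-3 share 27.5%, its Ighv5-4 share 16.4% and its Ighv1-42 share 7.05%, the highest of its group in each. WT GC B replicate 1 had the highest IGHV8 share, 14.7%, the highest Ighv8-8 share, 10.9%, the highest Ighv12-3 share, 0.0701%, and the lowest Ighv1-22 share, 0.0284%. WT GC B replicate 6 had the highest Ighv5-9-1 share, 7.57%.

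Among S1PR4 KO GC libraries, replicate 4 was highest for Ighv1-22 at 10.7%, Ighv5-9-1 at 3.00%, Ighv11-2 at 0.343% and Ighv12-3 at 0.120%. Replicate 2 was highest for Ighv1-72 at 6.18%, replicate 3 for Ighv5-17 at 14.9% and replicate 6 for Ighv5-2 at 0.686%.

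In WT non-GC B cells, replicate 2 was highest for IGHV7 at 2.46%, Ighv7-3 at 2.16% and Ighv1-76 at 4.60%, and replicate 4 was lowest for IGHV2 at 1.37%. Replicate 3 was highest for Ighv11-2 at 3.37%, Ighv12-3 at 0.299% and Ighv1-22 at 2.03%, and lowest for Ighv1-72 at 3.15%. In S1PR4 KO non-GC B cells, replicate 1 was highest for IGHV14 at 5.04%, replicate 2 for Ighv1-22 at 2.09% and Ighv1-26 at 5.31%, and replicate 4 for IGHV7 at 1.46%.

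The T cell libraries, which entered no test, also held Ighv counts. Their median summed level was 53.0 CPM in WT Tfh, 7.13 CPM in S1PR4 KO Tfh, 4.02 CPM in WT non-Tfh and 0.276 CPM in S1PR4 KO non-Tfh libraries, against floors of 0.0915, 0.102, 0.0971 and 0.102 CPM that 3 counts give.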

How the results depend on the processing

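The number of members called in GC against non-GC B cells was 50 in WT and 29 in S1PR4 KO. Scaling by the summed Ighv count gave 30 in WT, 3 higher and 27 lower. It also turned the log2 fold change in WT of Ighv1-72 (-0.79), Ighv1-26 (-0.41), Ighv5-4 (-0.016), Ighv1-22 (-0.86), Ighv4-1 (-0.20) and Ighv2-2 (-1.14), and in S1PR4 KO of Ighv8-8 (-0.26). Because each replicate number occurs in several groups, a replicate block was fitted, and the pairing gave 39 in WT, 17 in S1PR4 KO and 0 in the other comparisons. Deviations of same-numbered libraries correlated between -0.11 and 0.14 over all genes and between -0.20 and 0.22 over the members. In GC against non-GC B cells, 4 of 5 numbers in WT and 0 of 4 in S1PR4 KO correlated best with their own, a hint from the data and not the design. DESeq2 called 1 member between genotypes in GC and 1 in non-GC B cells. Leaving out each library gave 40 to 53 members in WT, 18 to 36 in S1PR4 KO, with 19, 18, 18 and 19 without non-GC replicates 1 to 4, and 0 in every case between genotypes and for the interaction. The cause was not tested. All 216 alternatives of the evenness and level differences and all 750 of the family differences stayed within the spread, though the mean top-5 share in GC B cells, 1.14 percentage points lower in S1PR4 KO (-1.14), became 2.80 without WT GC replicate 2, and 0.16 and 0.88 without S1PR4 KO GC replicates 5 and 6.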

Other observations

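Ighv counts in the T cell libraries had a usage of their own. T cells do not rearrange the heavy chain locus in full, and the B cell marker Ms4a1 in these libraries ran from 0 to 48.1 CPM, whose part in these counts was not tested. Jchain was present too, and T cells had been gated as TCRβ+ CD4+. WT Tfh replicates 4 and 5, with 124 and 140 CPM of Ighv, had Jchain at 144 and 116 CPM beside Ms4a1 at 3.92 and 5.09 CPM. S1PR4 KO Tfh replicate 2, with 23.4 CPM of Ighv, had 7.72 CPM of Jchain and 0.309 CPM of Ms4a1, and the part of either cell type was not tested. The Tfh and non-Tfh libraries of the same number had the same leading segment in 4 of 6 WT pairs and in 1 of 6 S1PR4 KO pairs. In WT pair 5, Ighv1-9 held 67.9% of usage in Tfh over 5241 counts and 68.0% in non-Tfh over 391 counts. In WT pair 4, Ighv1-58 held 56.4% and 57.2%. In S1PR4 KO pair 4, Ighv5-6 held 59.2% and 52.1%. The overlap of usage in WT pairs ran from 36.5 to 81.4% with a median of 58.3%, and each WT Tfh library overlapped more with the non-Tfh library of its own number than with any other, as did 2 of the 6 S1PR4 KO Tfh libraries. Most S1PR4 KO non-Tfh libraries held too few counts to describe usage, 2 to 73 in all. In S1PR4 KO Tfh replicate 2, Ighv1-64 held 97.5% of 909 counts, whereas in S1PR4 KO GC B cells it held 0.560 to 6.93%. Whether a number marks the same mouse is not given in the sources used here.

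The usage of 3 GC libraries, WT 1, 2 and 3, overlapped most with the non-GC library of their own number, by 63.7%, 44.3% and 65.4%, whereas the other 6 GC libraries with a non-GC library of the same number overlapped most with another.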
